A study of Mus musculus with 2 samples.

Results

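Twin CTCF peaks are peaks of the optimal list on chromosomes 1 to 19 whose summit, the position of highest signal, lies 1 to 500 bp from the summit of another peak of the same list. The rule found 3060 of 63856 such peaks, 4.79% (95% Wilson interval 4.63 to 4.96). They form 1553 pairs of adjacent summits in 1507 groups: 1463 groups of 2 summits, 42 of 3 and 2 of 4. No 2 summits shared a position. The count rests on the library: among as many top-signal peaks of the own list of replicate 2 alone there were 10139 twins, and among those of replicate 1 alone 1721. Pairs at most 325 bp apart made up 76.0% in the optimal list, 98.2% in replicate 2 alone and 20.5% in replicate 1 alone. CTCF was mapped by chromatin immunoprecipitation and sequencing in whole kidney of newborn B6NCrl mice, age 0 days, with an antibody against CTCF. There is 1 group of 2 libraries. They carry biological replicate numbers 1 and 2 but 1 shared biosample and donor, so spread between them may be technical. Sex is not given, and neither a second group nor an input was analysed here. Whole kidney holds many cell types, so binding of both sites in 1 cell and binding of each in different cells cannot be told apart.

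CTCF is a zinc-finger protein that binds DNA through a long, asymmetric motif. Cohesin, which extrudes chromatin loops, is held at CTCF sites in a direction-dependent way, so the strand of the motif sets the side from which a loop is anchored. CTCF sites are known to occur in clusters, at domain boundaries and near promoters, and a pair of adjacent sites can carry motifs in tandem, facing each other (convergent) or facing away (divergent).

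The sequences of 4 pairs show how differently the motifs are arranged at pairs with summits about 200 bp apart. Each stretch runs from 1 match to the other with a few bases on each side, and not from summit to summit. They are GRCm38, the assembly also called mm10, read on the forward strand, with the best match of each member to a CTCF matrix in capitals. The matrix, 19 bp wide, was learned from peaks that are not twins, and its cutoff lets through 1 of 10000 positions in control sequence 2 kb from the summits. The pair nearest Fam92b has the highest-ranked weaker member of all pairs and carries matches in tandem. The Mrps31 pair carries convergent matches, the Bcan pair holds the strongest peak of any close pair beside a much weaker one, and the Ric8b pair has 7 matches, counted from 100 bp below the lower to 100 bp above the higher summit with starts at least 10 bp apart. The stretch printed for Ric8b holds its best match per member and not all 7. It consists largely of a short repeated unit, and its 2 marked matches resemble each other closely.
Fam92b pair, chr8:120179064-120179360: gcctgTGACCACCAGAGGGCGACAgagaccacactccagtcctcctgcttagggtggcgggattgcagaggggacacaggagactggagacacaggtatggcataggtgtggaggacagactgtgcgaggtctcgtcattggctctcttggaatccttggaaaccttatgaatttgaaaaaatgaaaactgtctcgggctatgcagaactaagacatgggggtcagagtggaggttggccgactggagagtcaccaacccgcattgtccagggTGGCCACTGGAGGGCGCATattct
Mrps31 pair, chr8:22433149-22433405: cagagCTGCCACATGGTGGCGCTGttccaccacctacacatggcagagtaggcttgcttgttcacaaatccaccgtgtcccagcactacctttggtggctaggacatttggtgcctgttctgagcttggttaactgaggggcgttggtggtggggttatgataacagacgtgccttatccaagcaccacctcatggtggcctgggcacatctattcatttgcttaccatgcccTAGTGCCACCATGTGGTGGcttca
Bcan pair, chr3:87987135-87987318: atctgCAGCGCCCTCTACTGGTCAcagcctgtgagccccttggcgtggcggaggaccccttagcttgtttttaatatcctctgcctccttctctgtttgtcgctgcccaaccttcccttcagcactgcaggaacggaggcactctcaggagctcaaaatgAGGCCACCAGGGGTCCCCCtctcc
Ric8b pair, chr10:84986182-84986312: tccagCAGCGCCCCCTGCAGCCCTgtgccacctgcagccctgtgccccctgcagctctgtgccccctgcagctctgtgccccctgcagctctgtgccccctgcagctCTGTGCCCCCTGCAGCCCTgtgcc

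Spacing between twin summits fell into 2 separate ranges. No pair was closer than 199 bp, and 147 pairs lay at exactly 199 bp. Below 210 bp lay 783 pairs. The pairs up to 307 bp numbered 1180, the next spacing was 328 bp, and 373 pairs lay from there to 500 bp. A boundary of 325 bp, chosen after this gap was seen, divides them below into close pairs (2327 members) and wide pairs (744 members); 11 peaks belong to a pair of each kind. The median spacing was 204 bp in close pairs (interquartile range 201 to 215) and 453 bp in wide pairs (425 to 475). Wide pairs ran on into more distant neighbours without a step at the upper limit: 194 pairs lay 451 to 500 bp apart, and 199 adjacent summits lay in the next 50 bp, outside the rule.

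The pair just inside the limit, at the promoter of Hnrnpm, an RNA-binding protein gene, had summits 500 bp apart with authors' signal values of 102 and 24.8. Pairs at 499 bp lay near Atg2a (signal 90.5 and 66.5) and Phactr1 (52.1 and 213). Just outside it, 1 bp beyond, lay neighbours near Hdac7 (195 and 322), Tom1l1 (362 and 123) and Nup153 (27.7 and 20.2). In each of these 6 pairs the 2 summits had unequal signal.

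**Figure D1:**
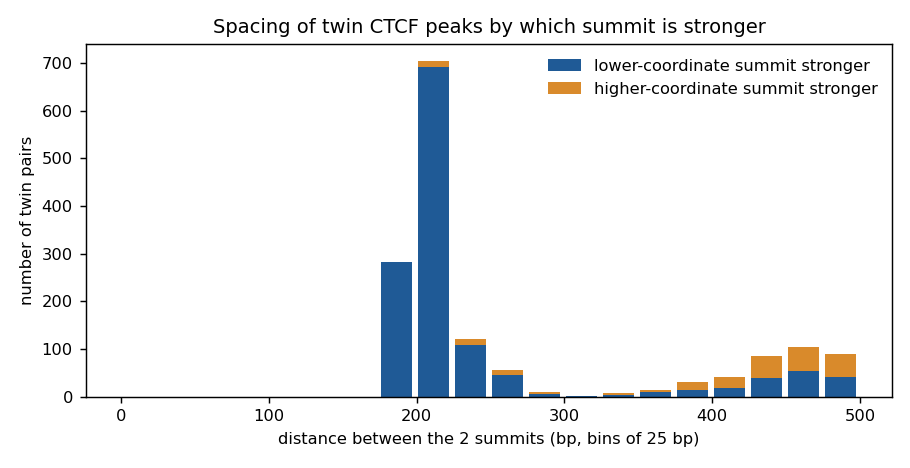
Number of twin pairs (vertical axis) by distance between the 2 summits in bins of 25 bp (horizontal axis), split by whether the lower- or higher-coordinate summit has more signal. A tall group starts at 199 bp, in which the lower-coordinate summit is nearly always the stronger, and a separate low group rises towards 500 bp, in which both sides lead about equally often.

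A sparse stretch stood in every deposited list, at a distance that moved with the list. Of the 50-bp bins from 201 to 500 bp, the emptiest was 301 to 350 bp in the optimal, conservative and pooled lists, 251 to 300 bp in replicate 1 and 401 to 450 bp in replicate 2. The most frequent width of a deposited peak interval moved with it: 330 bp in the optimal, conservative and pooled lists, 280 bp in replicate 1 and 410 bp in replicate 2. Its part in the spacing was not tested. Pairs at most 325 bp apart, a boundary that falls on the sparse stretch of the optimal, conservative and pooled lists but not on those of the libraries, were unevenly frequent. There were 8.74 per 100 peaks in the list of replicate 2, 1.25 in that of replicate 1 and 3.13 in the pooled list. These lists hold 300000 peaks each over all chromosomes. The conservative list (59444 peaks) had 2.51 and the optimal list (65482 peaks) had 1.85. The rates of these shorter lists and of the longer ones are therefore not compared at equal size. In all 5 lists the smallest spacing was 199 bp, and in all 5 it was also the most frequent spacing of pairs at most 325 bp apart. The peak caller and any least distance it keeps between summits are not stated in the sources used here, so whether the floor at 199 bp and the close pairs come from such a setting was not tested.

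**Figure D2:**
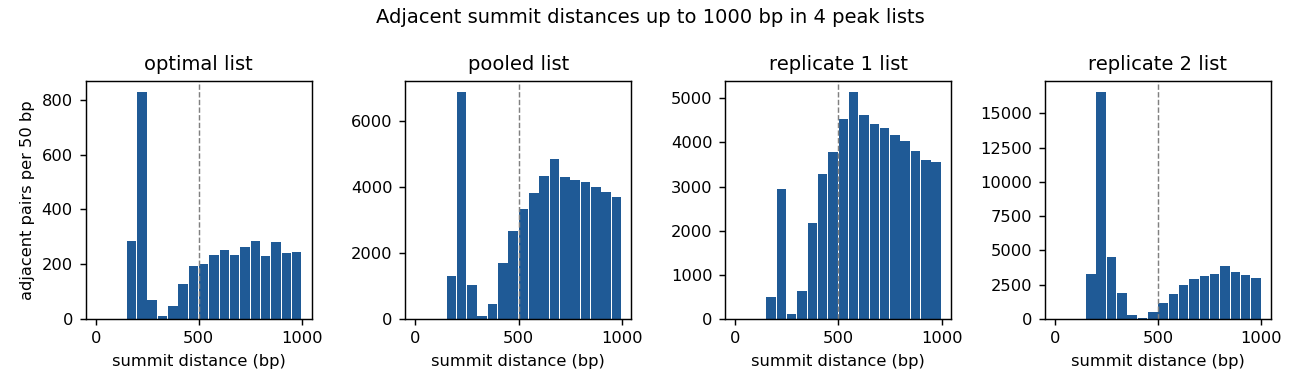
Number of adjacent summit pairs per 50 bp (vertical axis, own scale in each panel) by distance up to 1000 bp (horizontal axis) in the optimal, pooled, replicate 1 and replicate 2 lists; the dashed line marks 500 bp. The first group starts at 199 bp in each list, and the sparsest bin after it holds 101 pairs at 251 to 300 bp in replicate 1 and 61 pairs at 401 to 450 bp in replicate 2.

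Signal was unequal within close pairs and the stronger member almost always had the lower coordinate. In close pairs the lower-coordinate summit had a median signal of 35.1 (interquartile range 20.5 to 88.3) and the higher-coordinate summit one of 11.1 (7.24 to 23.9). These are percentiles 26.6 and 1.18 of the optimal list. The lower-coordinate summit was the stronger in 1135 of 1180 close pairs, 96.2% (95% Wilson interval 94.9 to 97.1), against 181 of 373 wide pairs, 48.5% (43.5 to 53.6). It was the stronger in 147 of 147 pairs at 199 bp, in 634 of 636 at 200 to 209 bp, in 143 of 146 at 210 to 219 bp, in 132 of 149 at 220 to 239 bp and in 79 of 102 at 240 to 325 bp. Among adjacent summits over 500 and up to 1000 bp apart, called nearer neighbours below, the share was 48.4% (46.4 to 50.4). Among those over 1000 and up to 5000 bp apart, called farther neighbours, it was 6453 of 12914 (95% interval 49.1% to 50.8%). Whether the side of the stronger summit comes from how the peaks were called was not tested either. Intervals cover counting error only, and peaks are not replicates of a condition.

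Genome coordinates run without regard to genes or motifs, and the share was alike for both strands. Outside intergenic sequence the lower-coordinate summit was the stronger in 386 of 402 close pairs whose nearest start lies on the forward strand, and in 404 of 420 whose nearest start lies on the reverse strand. Where the lower-coordinate member carried a match, it was the stronger in 262 of 267 close pairs with a forward match and in 202 of 203 with a reverse match. In 462 close pairs both summits lay at promoters. The member more upstream in the direction of the gene was the stronger in 50.9% of them (46.3 to 55.4). The summits stood on opposite sides of the nearest start in only 164 of the 462. Both lay upstream of it in 167 and both downstream in 131.

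Many of the weaker members sit at the bottom of the optimal list. Of the 638 peaks in its lowest 1% by signal, 564 (88.4%) were twins and 513 (80.4%) were the higher-coordinate member of a close pair. In the upper 50% of the list, 800 of 31928 peaks (2.51%) were twins. The deposited intervals of close pairs overlapped in 1113 of 1180 (94.3%), against 2 of 373 wide pairs (0.536%). An interval of exactly 330 bp belonged to 87.9% of higher-coordinate members of close pairs, 72.3% of lower-coordinate members of close pairs and 52.4% of peaks that are not twins. Which summits stand in the conservative list differed as well: it held the same summit for 61.8% of twins (1892 of 3060), against 84.8% of other peaks and 83.7% of all peaks. For higher-coordinate members of close pairs the share was 48.0%, for lower-coordinate members 69.7%, and for members of wide pairs 71.0%. These shares do not mean that the conservative list holds fewer twins. By the same rule it had 3444 twins of its own, 5.95% of its peaks, and 1451 pairs at most 325 bp apart.

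**Figure D3:**
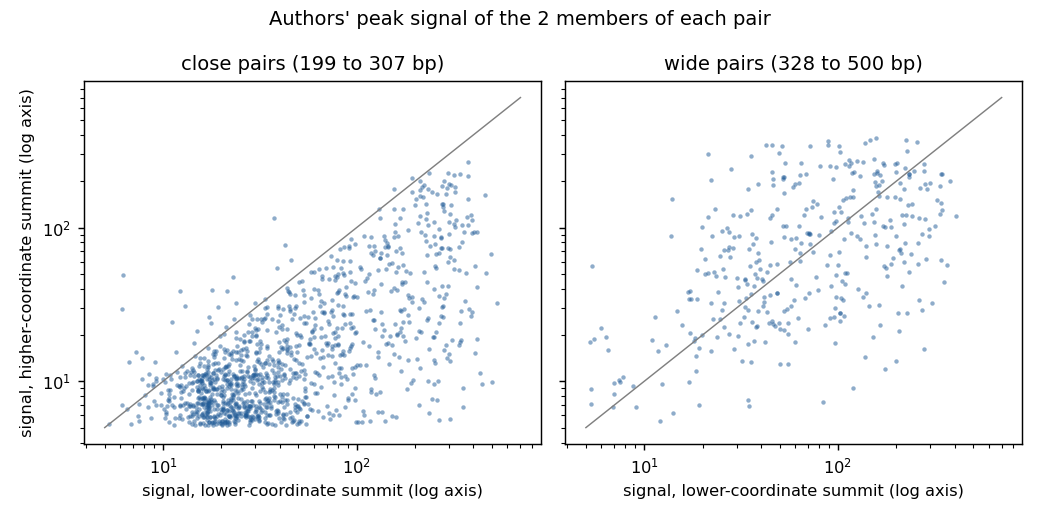
The authors' peak signal of the higher-coordinate summit (vertical log axis) against that of the lower-coordinate summit (horizontal log axis) for 1180 close and 373 wide pairs; each point is 1 pair and the line marks equal signal. Close pairs lie below the line in 1135 cases, and wide pairs lie on both sides of it.

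The weaker summit had a median of 0.358 times the signal of the stronger in close pairs (interquartile range 0.219 to 0.562) and 0.511 times in wide pairs (0.316 to 0.743). Over all twin pairs it was 0.390, against 0.227 in the list of replicate 2 alone and 0.499 in that of replicate 1 alone, and 0.594 with pairs sought only in the upper 50% of signal. This ratio had a median of 0.400 in nearer neighbours and 0.385 in farther neighbours. Members within 80% of each other made up 86 of 1180 close pairs (7.29%), 62 of 373 wide pairs (16.6%) and 14.5% of nearer neighbours. The weaker member had under 10% of the signal of the stronger in 85 close pairs and 8 wide pairs. These differences between classes of pairs were not tested.

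The libraries listed wide pairs differently from close pairs. A separate summit within 100 bp of each member stood in replicate 1 for 354 of 373 wide pairs (94.9%) and in replicate 2 for 200 (53.6%). For close pairs the counts were 366 of 1180 (31.0%) in replicate 1 and 621 (52.6%) in replicate 2, and 415 (35.2%) had both summits in neither library's own list. The higher-coordinate summit of close pairs was the one most often missing: replicate 1 listed it for 40.8% of pairs, against 88.4% for the lower-coordinate one, and replicate 2 listed it for 67.9%, against 79.6%. Where both summits were listed, the lower-coordinate one led in 349 of 366 close pairs in replicate 1 (95.4%) and in 595 of 621 in replicate 2 (95.8%). In wide pairs the lower-coordinate summit led in 49.2% in replicate 1 and in 58.0% in replicate 2. All these pairs were chosen in the optimal list. Over every pair at most 325 bp apart in a library's full own list, the lower-coordinate summit led less often. The counts were 3085 of 3667 in replicate 1 (84.1%) and 21553 of 25551 in replicate 2 (84.4%). The same summit led in both libraries in 205 of 222 close pairs (92.3%, interval 88.1 to 95.2) and in 143 of 195 wide pairs (73.3%, interval 66.7 to 79.0). A lead of 1 side as common as in close pairs makes most pairs agree by itself. The 2 shares therefore do not compare the agreement of the libraries between the classes.

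CTCF motif matches were less frequent at twins than at other peaks. A match lay within 100 bp of 1000 of 3060 twin summits, 32.7% (31.0 to 34.4), against 62.7% of other peaks (62.3 to 63.1) and 61.2% of all peaks. On even-numbered chromosomes, which were not used to learn the matrix, the shares were 33.2% and 62.4%. The matrix was learned from non-twins only, and its cutoff was set on control sequence of even-numbered chromosomes. Any lean of the matrix towards non-twins is therefore not removed by this split. The gap between twins and other peaks was widest in the lowest 20% of signal, which held 1568 of the 3060 twins: there 13.5% of twins and 41.6% of other peaks had a match. Between percentiles 20 and 40 32.2% of twins and 51.7% of other peaks did, between percentiles 40 and 60 46.8% and 58.8% did, between percentiles 60 and 80 72.6% and 72.6% did, and above percentile 80 82.0% and 86.1% did. Members of wide pairs had a match in 48.3% of cases (44.7 to 51.8), lower-coordinate members of close pairs in 39.8% and higher-coordinate members of close pairs in 14.8%. Among twins of the list of replicate 1 alone the share was 49.2%, and among those of replicate 2 alone 38.0%, and with pairs sought only in the upper 50% of signal it was 70.4%.

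A match at each member was found in 113 of 1180 close pairs, 9.58% (8.03 to 11.4), and in 111 of 373 wide pairs, 29.8% (25.3 to 34.6). Over all twin pairs the share was 14.4%, against 4.54% in the list of replicate 2 alone and 30.3% in that of replicate 1 alone, and 51.7% with pairs sought only in the upper 50% of signal. Nearer neighbours had one at both summits in 34.1% and farther neighbours in 40.8%. In close pairs a match at the lower-coordinate member alone (357 pairs) outnumbered one at the higher-coordinate member alone (62 pairs), whereas wide pairs had 67 and 70. Of close pairs with exactly 1 matched member, that member was the stronger in 363 of 419 (86.6%), and of such wide pairs in 93 of 137 (67.9%). In 357 of these 419 the matched member was the lower-coordinate one, which was the stronger in 96.2% of all close pairs. The 2 shares therefore do not compare the link of match and signal between the classes. No match at either member was found in 648 close pairs (54.9%) and 125 wide pairs (33.5%). Over the whole stretch between and around the summits, 3 or more matches lay in 9 close and 11 wide pairs. The most were 8, in an intron of the zinc-finger gene Zfp407, where signals were 223 and 189, and 7 at the Ric8b pair shown above, in an intron, where they were 132 and 8.55.

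Where both members had a match, the distance between matches was nearer to that between summits in wide pairs than in close pairs. Matches were sought only within 100 bp of a summit and given to the nearest one. A rough likeness of the 2 distances is therefore set by the search. The distance between matches differed from that between summits by a median of 13 bp in wide pairs and 35 bp in close pairs. A match centre lay a median of 7 bp from the summit at members of wide pairs, 13 bp at lower-coordinate and 32 bp at higher-coordinate members of close pairs, and 6 bp at peaks that are not twins. The match-to-match distance had a median of 239 bp in close pairs (range 102 to 346) and 432 bp in wide pairs (313 to 538). Matches of 1 pair were seldom copies of each other: the median number of mismatches over the 19 bp was 7 in close and 8 in wide pairs, and they were identical in 2 of 113 close and 0 of 111 wide pairs (upper Wilson limit 3.35%). The windows around the summits shared a stretch of 20 bp in 20 close pairs (1.69%) and 2 wide pairs (0.536%), against 1.18% of nearer neighbours.

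**Figure D4:**
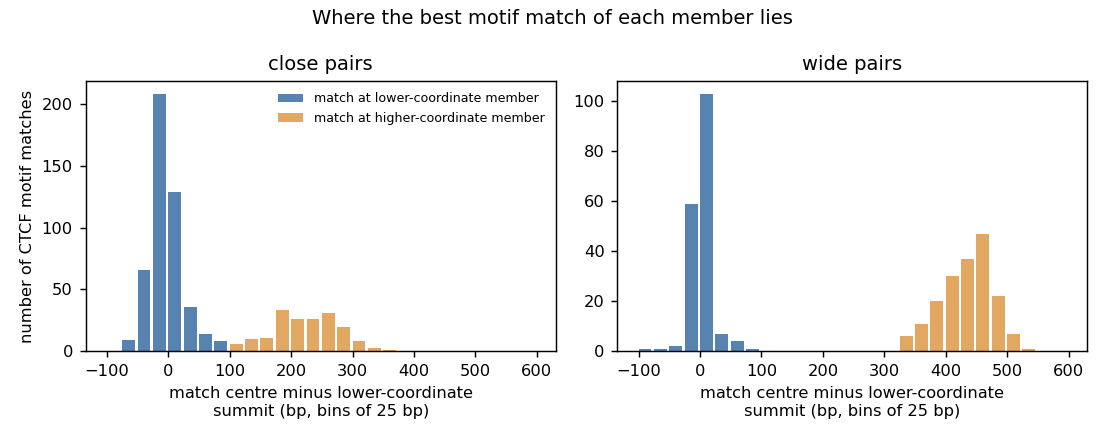
Number of CTCF motif matches (vertical axis) by position of the match centre relative to the lower-coordinate summit in bins of 25 bp (horizontal axis), for the best match at the lower- and at the higher-coordinate member, in close and wide pairs. Close pairs show 470 matches at the lower and 175 at the higher member, and wide pairs show 178 and 181.

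Tandem matches cover 2 of the 4 combinations of strands, and convergent and divergent matches 1 each, so their shares are read only against the same share of other neighbours. Of 113 close pairs with matches at both members, 71 were tandem (62.8%, interval 53.6 to 71.2), 27 convergent (23.9%, 17.0 to 32.5) and 15 divergent (13.3%, 8.21 to 20.8). Of 111 wide pairs, 56 were tandem (50.5%, 41.3 to 59.6), 33 convergent (29.7%, 22.0 to 38.8) and 22 divergent (19.8%, 13.5 to 28.2). Nearer neighbours were tandem in 53.7% (50.3 to 57.0), convergent in 21.2% (18.6 to 24.1) and divergent in 25.1% (22.3 to 28.2). Farther neighbours were tandem in 55.1%, convergent in 18.8% (17.8 to 19.9) and divergent in 26.1% (24.9 to 27.3). The interval of the divergent share of close pairs lay below those of both kinds of neighbours. That of the convergent share of wide pairs overlapped that of nearer neighbours and lay above that of farther neighbours. Tandem intervals of close and wide pairs overlapped those of nearer neighbours, and none of these differences was tested.

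Pairs were ranked by the signal percentile of their weaker member, and 7 of the 10 highest were wide although 76.0% of all pairs are close. The highest was the close Fam92b pair shown above, in an intron 1662 bp from a start, with signals of 375 and 266 in the optimal list. Replicate 1 listed its summits with 162 and 67.7 and replicate 2 with 209 and 197, so the lower-coordinate summit led in both. The next was a wide pair 3709 bp from a start of Aqp5, a water channel gene, with signals of 277 and 258 and tandem matches 432 bp apart. Its summits had 162 and 169 in replicate 1 and 113 and 78.3 in replicate 2, so a different summit led in each library. The pair in an intron of Kcnab2, a potassium channel subunit gene, had 246 and 235, with 173 and 174 in replicate 1 and 71.4 and 54.7 in replicate 2. Its leading summit also differed between the libraries.

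A wide pair 767 bp from a start of Wnt7b, which encodes a Wnt ligand of the collecting duct, had signals of 341 and 224, with 209 and 150 in replicate 1 and 121 and 59.9 in replicate 2, and tandem reverse matches 462 bp apart. A wide pair nearest to Krt8, a keratin gene of simple epithelia, lay 19969 bp from its start with signals of 227 and 314. Replicate 1 gave its summits 164 and 193 and replicate 2 gave 49.4 and 118, so the higher-coordinate summit led in both libraries. The other five lay nearest to Igsf8, Spns1, Jakmip3, Mcoln2 and Fmnl1, with weaker members between percentiles 78.3 and 82.6. The matches of the wide pairs at Aqp5, Kcnab2, Krt8 and Wnt7b, which carry tandem motifs, read as follows in the direction of the motif.
Aqp5 lower-coordinate match, chr15:99596150-99596168, forward strand: CAGCCAGCAGGGGGCAGAC
Aqp5 higher-coordinate match, chr15:99596582-99596600, forward strand: TGGCCAGCAGGGGGCACTG
Kcnab2 lower-coordinate match, chr4:152435021-152435039, reverse strand: TGGCCACTGGGTGGCGCTG
Kcnab2 higher-coordinate match, chr4:152435444-152435462, reverse strand: CCTCCTGTAGGGGGCGCTG
Krt8 lower-coordinate match, chr15:101984097-101984115, reverse strand: TGTCCAGCAGGAGGCAGCA
Krt8 higher-coordinate match, chr15:101984509-101984527, reverse strand: TTTCCACTAGAGGGCAGCA
Wnt7b lower-coordinate match, chr15:85583237-85583255, reverse strand: TCGCCACGGGATGGCAGCA
Wnt7b higher-coordinate match, chr15:85583699-85583717, reverse strand: CTGTCGGCAGGGGGCAGCA

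Of pairs with both members matched, 7 had summits 199 bp apart, the smallest spacing, and the 5 of these with the strongest weaker member are given. They lay nearest to Gm4791, Mrps31, Cntn2, Sox1 and Ly6h, and 4 of the 5 were convergent, with the Cntn2 pair in tandem. Signals were 369 and 117 at the Gm4791 pair, 262780 bp from a start, and 393 and 112 at the Mrps31 pair, 21782 bp from a start of that mitochondrial ribosome gene. They were 88.2 and 40.9 in an intron of Cntn2, an axonal adhesion gene, 156 and 40.5 near Sox1, a neural transcription factor gene, and 44.5 and 31.0 at Ly6h. At all 5 the lower-coordinate summit led in the optimal list and in every library that listed both summits.

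The most unequal pairs with both members matched had a ratio of weaker to stronger signal of 0.0374 to 0.0696. They lay nearest to Cystm1 (405 and 15.2), Tacr2 (292 and 14.3), Bcan (530 and 32.4), Ric8b (132 and 8.55) and Rbfox2 (342 and 23.8). All 5 were close pairs, and the lower-coordinate summit led in each. The weaker summit was missing from the list of replicate 1 at the first 4 and present at Rbfox2, a splicing regulator gene, with 78.4 against 148 for the stronger one. At Ric8b the weaker summit was missing from the list of replicate 2 as well. Bcan encodes a brain proteoglycan and Tacr2 a neurokinin receptor.

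Twins lay at promoters more often than other peaks. Of the 3060 twins, 1217 lay within 1 kb of a transcription start of a protein-coding gene, 39.8% (38.1 to 41.5), against 15.6% of other peaks (15.3 to 15.9) and 16.7% of all peaks. Among twins of the list of replicate 2 alone the share was 23.04%, among those of replicate 1 alone 39.1%, and with pairs sought only in the upper 50% of signal 22.5%. In the optimal list the share was alike in close pairs (40.0%) and wide pairs (39.2%). Twins exceeded other peaks at every level of signal: 43.5% against 18.8% in the lowest 20%, 39.5% against 16.3% between percentiles 40 and 60, and 20.8% against 12.9% above percentile 80. Introns held 765 of 3060 twins and 38.2% of other peaks, intergenic sequence 30.9% and 41.8%, coding exons 1.99% and 1.80%, and UTRs 1.54% and 1.88%. The median distance to the nearest start was 2839 bp for twins and 11766 bp for other peaks. These differences were not tested, and promoters are also where other close neighbours lie: both summits were promoter peaks in 28.6% of nearer neighbours and in 6.10% of farther neighbours.

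**Figure D5:**
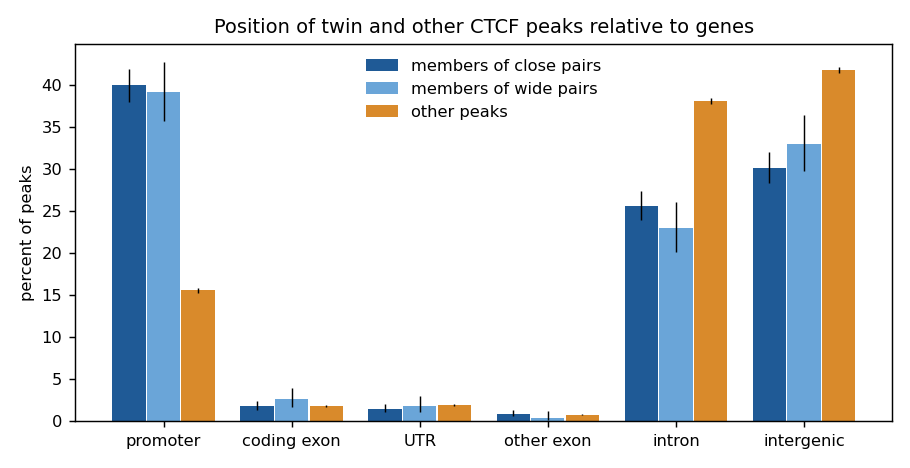
Percent of peaks (vertical axis) by position relative to protein-coding genes for members of close pairs, members of wide pairs and other optimal peaks; error bars are 95% Wilson intervals. Promoter shares are 40.0% and 39.2% in the 2 classes of twins and 15.6% in other peaks.

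Both members usually had the same position class: 1133 of 1180 close pairs and 343 of 373 wide pairs (92.0%). Both were promoter peaks in 462 close and 140 wide pairs, both intergenic in 348 and 119, and both intronic in 285 and 77. Of promoter pairs, the summits stood on opposite sides of the nearest start in 93 of 140 wide pairs (66.4%, 58.3 to 73.7) and 164 of 462 close pairs (35.5%, 31.3 to 40.0). Wide pairs span more sequence (median spacing 453 bp against 204 bp over all pairs of each class), so these shares are not compared at equal spacing. Soft-masked sequence, which marks repeats, lay under 475 twin summits (15.5%), against 22.4% of other peaks.

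The 5 promoter pairs with the highest weaker member lay at Spns1, a lysosomal transporter gene (277 and 235, summits 477 bp apart), Abca4, a lipid transporter gene (376 and 216, 203 bp), 1700020L24Rik (377 and 202, 468 bp), Zbtb45, a zinc-finger gene (210 and 194, 410 bp), and Mus81, a DNA repair nuclease gene (298 and 193, 446 bp). The nearest summit lay 8 bp from a start at Mus81 and 113 bp at Spns1. Only the Abca4 pair was close. Matches were convergent at Spns1, 1700020L24Rik and Zbtb45, tandem at Abca4 and present at 1 member at Mus81. At Zbtb45 the lower-coordinate summit led in replicate 1 (145 against 129) and the higher-coordinate one in replicate 2 (66.8 against 56.9). The same held at Spns1, with 170 against 144 in replicate 1 and 87.7 against 77.4 in replicate 2. At Abca4, 1700020L24Rik and Mus81 the lower-coordinate summit led in both libraries. The convergent matches of 2 of these promoters, both wide pairs, are shown in the direction of the motif.
1700020L24Rik lower-coordinate match, chr11:83440498-83440516, forward strand: CAGCCAGCAGGTGGCGCTG
1700020L24Rik higher-coordinate match, chr11:83440960-83440978, reverse strand: TCACCGGTAGGAGGCGCTA
Zbtb45 lower-coordinate match, chr7:13009259-13009277, forward strand: TGGCCGCCAGAGGGAGCCT
Zbtb45 higher-coordinate match, chr7:13009651-13009669, reverse strand: CGAACACAAGAGGGCGCTG

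Groups of more than 2 summits were rare. The groups of 4 lay at the promoters of Pgls, a pentose phosphate pathway enzyme gene, and Kif22, a kinesin gene. All their signals were low, from 5.23 to 17.9 at Pgls and from 6.16 to 10.4 at Kif22. The 3 groups of 3 with the highest summed signal lay near Vps52, a vesicle tethering gene (290, 37.2 and 115), in an intron at Rpl13, a ribosomal protein gene (205, 13.9 and 153), and near Zap70, a T-cell kinase gene (290, 17.3 and 38.8). In each of these 3 the middle summit, 204 to 208 bp above the first, was the weakest.

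Genes of kidney cell types were searched, list by list, for twins near their 5' end. Over all protein-coding genes on chromosomes 1 to 19, 1029 of 20780 (4.95%) had the midpoint of a pair within 10 kb. Nephron progenitor genes had one at 2 of 14: Jag1, a Notch ligand gene (wide pair, 178 and 54.6, in an intron), and Osr1, a transcription factor gene (close pair, 231 and 44.0, 60 bp from the 5' end). Ureteric bud and collecting duct genes had one at 1 of 15, Wnt7b, described above. Podocyte genes had one at 1 of 14 (Tcf21, 15.6 and 13.2) and renal stroma genes at 1 of 14 (Gli1, 49.4 and 20.003). Of 13 genes of the distal tubule and loop of Henle, 0 had one. Of lists of other cell types in the tissue, endothelial genes had one at 1 of 10 (Egfl7, 162 and 39.3), and immune genes (9) and erythroid genes (7) had none.

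Imprinted genes had a pair at 3 of 18, all close: Peg3 (163 and 55.1), Kcnq1 (45.3 and 10.2) and Nnat (15.0 and 9.18). At Peg3 both members carried a match. Genes of cohesin and CTCF partners had one at 1 of 15, Maz, a zinc-finger factor gene, whose pair (7.75 and 10.4) belongs to the group of 4 at Kif22. The lists hold 7 to 18 measured genes each, so 1 gene moves a share by over 5 percentage points, and shares near 4.95% are not a result about a list. At Wnt7b and Jag1 the pair was wide, and at the other 8 genes named from the lists it was close with the lower-coordinate summit stronger, except at Maz.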

How the data were processed

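CTCF chromatin immunoprecipitation was measured in 2 libraries of newborn mouse kidney. The deposited files are 5 lists of peaks (narrowPeak, mm10), as the notes deposited with them state: 1 of each library, 1 of both pooled, and a conservative and an optimal list that passed a reproducibility threshold. Aligner, peak caller and thresholds: not given in the sources used here. The deposited signal column is the authors' value and was compared only within a list. The deposited summit offset and interval ends were used as positions. Lists hold no counts, so depth is unknown.

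Signal percentiles were taken over optimal peaks of chromosomes 1 to 19. Sequence came from GRCm38.p6 and genes from GENCODE M21 (all annotated starts of protein-coding genes, 1 kb on each side for promoters). The motif matrix started from the 10-base word with the largest excess of non-twin peaks on odd-numbered chromosomes over windows 2 kb away, with soft-masked bases left out. Each match within 100 bp was assigned to its nearest summit. Library summits were matched within 100 bp. No test was made, because there is 1 group: shares have 95% Wilson intervals. Pair finding and motif learning were tested on simulated data. Tools were Python 3.11.15, numpy 2.4.6, pandas 2.3.3, scipy 1.17.1 and matplotlib 3.10.9.

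Members and gene lists were chosen with earlier results of these data known. Named pairs are the 10 with the strongest weaker member, the 5 closest and 5 most unequal with matches at both members, the 5 strongest promoter pairs, the 5 largest groups, the pairs at the distance limit, and listed genes with a pair within 10 kb. Zfp407 was named after its values were seen. The result of 1 gene list is not reported here.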

Additional observations from a re-analysis of the deposited data

How the results depend on the processing

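The number of twins depends on the library. With as many top-signal peaks taken from 1 library's own list, leaving out each replicate in turn gave 1721 (without replicate 2) to 10139 (without replicate 1) twins, 2.70% to 15.9% of peaks, a median spacing of 203 to 412 bp, 20.5% to 98.2% of pairs at most 325 bp apart, a ratio of weaker to stronger signal of 0.227 to 0.499, and the lower-coordinate summit stronger in 59.3% to 96.01%. Members in promoters ran from 23.04% to 39.1%, members with a match from 38.0% to 49.2%, pairs with both matched from 4.54% to 30.3%, tandem pairs from 57.2% to 60.8%, and the median difference of signal percentile within a pair, 17.8 points in the optimal list, from 22.98 to 41.9. In the full own lists the lower-coordinate summit led in 84.1% (replicate 1) and 84.4% (replicate 2) of pairs at most 325 bp apart. Among pairs farther apart, up to 500 bp, it led in 49.6% and 51.4%. The cause of the ranges between the libraries was not tested.

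With the conservative list 5.95% of peaks were twins, 83.0% of pairs were at most 325 bp apart, the lower-coordinate summit led in 88.5% and both members matched in 11.7%. A limit of 250 bp gave 3.44% twins, 100% of pairs at most 325 bp apart, the lower-coordinate summit leading in 97.6%, matches at 27.6% of members and both members of 9.19% of pairs, and 64.7% tandem. A limit of 1000 bp gave 7681 twins (12.0%), a median spacing of 604 bp, 29.4% of pairs at most 325 bp apart, 62.5% led by the lower-coordinate summit, 34.7% of members in promoters, matches at 46.3% and at both in 26.5%. Outside soft-masked sequence 4.57% were twins, 47.3% lay in promoters, and matches stood at 27.7% and at both in 12.2%. With pairs sought only in the upper 50% of signal, so that both members lie in it, 422 peaks (1.32%) were twins. They had a median spacing of 379 bp, 45.5% at most 325 bp apart, a ratio of 0.594 and the lower-coordinate summit leading in 72.0%. Promoters held 22.5%, and matches stood at 70.4% and at both in 51.7%. Wide pairs alone, an alternative added after seeing the data, gave 744 twins (1.17%), a median of 453 bp, 48.5% led by the lower-coordinate summit, and matches at 48.3% and at both in 29.8%.

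Promoters of 2500 bp held 48.6% of twins and gene 5' ends alone gave 31.6%. With a cutoff that lets through 1 of 100000 control positions, 6.50% of members and both members of 1.35% of pairs matched, and with matches within 50 bp 30.1% and 12.2%. Matching library summits within 50 bp, the same summit led in both libraries in 86.8% of pairs, against 83.5% within 100 bp. The tandem share stayed between 53.2% and 61.9% under the alternatives other than the limit of 250 bp (above) and wide pairs alone (50.5%). No paired analysis was possible because there is 1 group and no comparison between groups. Depth is unknown, so no limit of detection can be given for a missing summit.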

Other observations

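The share of peaks that are twins ran from 3.25% on chromosome 16 to 5.72% on chromosome 19, with twins on all 19 chromosomes. Sequence around twins was richer in G and C than around other peaks. The median share of G and C over 201 bp was 53.2% at twins, 53.2% at members of close pairs and 54.2% at members of wide pairs, against 48.8% at other peaks. These differences were not tested.

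Of the 45 close pairs whose higher-coordinate summit was the stronger, the 3 with the highest weaker member lay in introns of Ctif (193 and 209) and Ptprm (157 and 177) and nearest to Pax6, a developmental transcription factor gene (131 and 133). These 3 were chosen after their values were seen. At Ctif the higher-coordinate summit led in replicate 1 (106 against 82.3), and the lower-coordinate one led in replicate 2 (116 against 101). At Ptprm and Pax6 replicate 1 did not list the lower-coordinate summit. In replicate 2 the lower-coordinate summit led at both, with 111 against 92.9 at Ptprm and 53.1 against 42.3 at Pax6.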
